A study of Mus musculus with 9 samples.

Results

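The genes of the mitochondrial respiratory chain and ATP synthase were followed over 9 microarrays of basal epidermal cells from the tail skin of CD1 mice. Members were chosen by name alone: every gene with 1 platform symbol that starts with Nduf, Uqcr or Atp5, or with Cox4 to Cox8, together with Sdha, Sdhb, Sdhc, Sdhd, Cyc1 and Cycs. This gave 89 of the 17097 genes measured, with 40 in complex I, 4 in complex II, 8 in complex III, cytochrome c itself, 19 in complex IV and 17 in complex V. FACS kept cells with surface α6 integrin, found on the basal layer, and without CD34, found on bulge cells of the hair follicle. Leading edge (LE) cells were taken at day 4 with a 4 mm punch around a 3 mm wound, and a further gate kept those with α5 integrin (ITGA5). Proliferative hub cells were taken at the same day with a 6 mm punch, and the gate kept those without ITGA5. Control cells were taken from tail skin at a distance from the wound, with no ITGA5 gate in their labels, so region, wounding and that gate cannot be told apart. Each group had 3 arrays, each from 300 cells. These replicates are biological in the labels but technical in the methods, and p-values here measure only the spread between such samples. The methods describe pools of 5 CD1 mice for duplicate samples, but do not say so separately for these triplicates. An array therefore need not stand for a single mouse.

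The respiratory chain sits in the inner mitochondrial membrane. Complex I (NADH dehydrogenase) and complex II (succinate dehydrogenase) feed electrons to coenzyme Q, complex III passes them to cytochrome c, and complex IV (cytochrome c oxidase) hands them to oxygen, while complex V (ATP synthase) uses the proton gradient to make ATP. The enzymes mix a few catalytic subunits with many small accessory subunits, and most subunits are made from nuclear genes. In the epidermis, basal cells are known to rely on glycolysis as well as on respiration, and wounded skin is low in oxygen. In skin, as elsewhere, mRNA of these subunits is not a measure of respiration itself.

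Values are log2 signals after RMA, and a difference of 1 is a 2-fold change. Of the 89 genes, 82 lay above the 95th percentile of the probe sets for nonspecific background (7.24) on average and 7 lay below it. The sort gene Itga5 followed the labels. Itga5 averaged 9.11 ± 0.05 at the LE, 6.92 ± 0.51 in the hub and 6.40 ± 0.14 in control cells (SD, n = 3 each). Krt5 and Krt14, keratins of basal keratinocytes, differed by less than 0.1 between the group means. Other basal keratinocyte markers did differ. Of 7 listed, 2 were higher and 1 lower at the LE than in control cells (28.6% and 14.3%, beside 11.9% and 10.8% of all genes). Itga6 and Itgb4 were at 0.69 and 0.34, and Krt15 was at -2.41. Krt15 was also lower at the LE than in the hub (-1.23) and in the hub than in control cells (-1.18). Some arrays also carried signal of other cells. Cdh5, an endothelial gene, was at 9.73, 7.02 and 6.86 on the LE arrays, 6.57, 8.39 and 8.42 on the hub arrays and 6.44, 6.96 and 6.10 on the control arrays, so LE array 1 and hub arrays 2 and 3 stood above the rest. Lyz2, a myeloid gene, was at 8.25, 5.36 and 7.12 on the LE arrays and at most 5.38 on the hub and control arrays. Counts are therefore also given without LE array 1, LE array 3, hub array 2 or hub array 3.

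Between LE and hub, respiratory chain genes were lower at the LE by a small amount, and accessory subunits of complex I made up most of those called. With limma and Benjamini-Hochberg adjustment over all genes at 0.05, 8 of the 89 genes were lower at the LE and 0 were higher. This is 8.99% of the set, beside 5.23% of all genes called lower, and 0 higher beside 5.39% of all genes. In either direction the share was 8.99%, beside 10.6% of all genes, and all 8 calls were lower. At an unadjusted p under 0.05 there were 27 lower and 2 higher (30.3% and 2.25%, beside 11.8% and 10.9% of all genes). The median difference of the 89 genes was -0.12, against -0.01 for all genes, and the differences ran from -0.49 to 0.30. In all, 75 of the 89 (84.3%) had a difference below 0, beside 51.6% of all genes. In 49 genes (55.1%) all 3 LE arrays lay below all 3 hub arrays, beside 15.4% of all genes. The reverse held for 5 genes, or 5.62%, beside 14.5% of all genes. The 14 genes with a difference above 0 were 15.7%, beside 48.4% of all genes. The median standard error was 0.077 for the 89 genes and 0.099 for all genes, so these shares compare genes of unlike spread. How far that alters them was not tested. No respiratory chain gene changed 2-fold or more in any comparison, while 1.87% of all genes were called with such a change between LE and hub, 4.70% between LE and control and 1.09% between hub and control. By the fold rule of the study's methods, read as more than 2-fold in every same-numbered pair, 0 of the 89 passed, beside 1.04%, 3.01% and 0.521% of all genes in these comparisons.

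**Figure D1:**
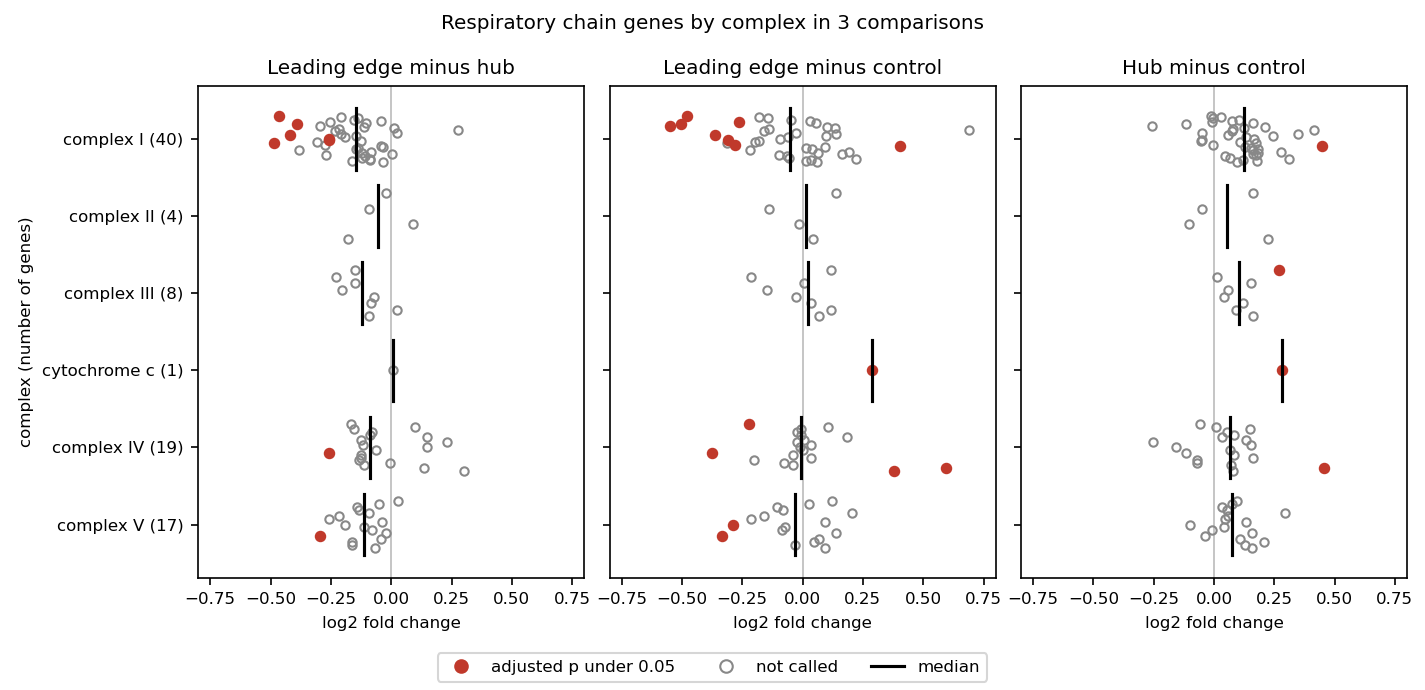
Log2 fold change of each respiratory chain gene (x axis) by complex (y axis, with the number of genes) for LE minus hub, LE minus control and hub minus control. Each circle is 1 gene, filled where the adjusted p was under 0.05, and the black bar is the median of the complex: most circles lie left of 0 in the first comparison (75 of 89) and right of 0 in the third (69 of 89).

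Ndufa1, a small membrane arm subunit that complex I needs for its assembly, gave the steadiest difference between the wound regions. Its signal was 11.44, 11.21 and 11.25 on the LE arrays, 11.69, 11.79 and 11.82 on the hub arrays and 11.78, 11.73 and 11.83 on the control arrays. The LE arrays lay below all the others, and hub and control arrays overlapped. LE minus hub was -0.47 ± 0.08 (SE), an adjusted p of 0.0048 by limma, and this was the only call of the 8 that held when each array was left out in turn. Without LE array 1 the difference was -0.53.

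Ndufb4, another accessory subunit of the membrane arm, had the lowest difference from the hub. It was at 10.24, 10.02 and 9.96 at the LE, 10.39, 10.59 and 10.69 in the hub and 10.30, 10.27 and 10.59 in control cells. All LE arrays lay below the hub arrays and below the control arrays, by a narrow gap on array 1. The difference from the hub was -0.49 ± 0.12 (adjusted p = 0.028, limma), while that from control, -0.31, was not called (adjusted p = 0.093). Its probe set is of a kind that can also bind related transcripts, so the value is less certain.

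Ndufa6, which anchors an acyl carrier protein to complex I, was at 9.17, 8.95 and 8.92 at the LE, 9.38, 9.42 and 9.41 in the hub and 9.54, 9.39 and 9.63 in control cells. The LE arrays lay below all the others. Its difference was -0.39 ± 0.09 from the hub (adjusted p = 0.023, limma). The remaining lower calls were Ndufaf5, an assembly factor of complex I (-0.42), Ndufb10 (-0.26) and Ndufb11 (-0.26), both membrane arm accessory subunits, Atp5l, the g subunit of ATP synthase (-0.29), and Cox7a2l, which helps to join complexes III and IV into supercomplexes (-0.26). Their adjusted p ranged from 0.033 to 0.046 by limma. The count fell to 1 when LE array 2, hub array 2 or hub array 3 was left out, and to 3 without LE array 3 or hub array 1, and it was 6 without LE array 1.

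By role, 5 of 26 accessory subunits of complex I (19.2%, beside 5.23% of all genes) were lower at the LE than in the hub, with a median difference of -0.15. None of the 6 catalytic core subunits measured was called, and their differences lay between -0.16 and -0.08. Complex II had 0 of 4 called and complex III 0 of 8, with medians of -0.06 and -0.12. In complex IV 1 of 19 was called (5.26%, median -0.09) and in complex V 1 of 17 (5.88%, median -0.11), which is about the share over all genes. No difference between complexes was tested.

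**Figure D2:**
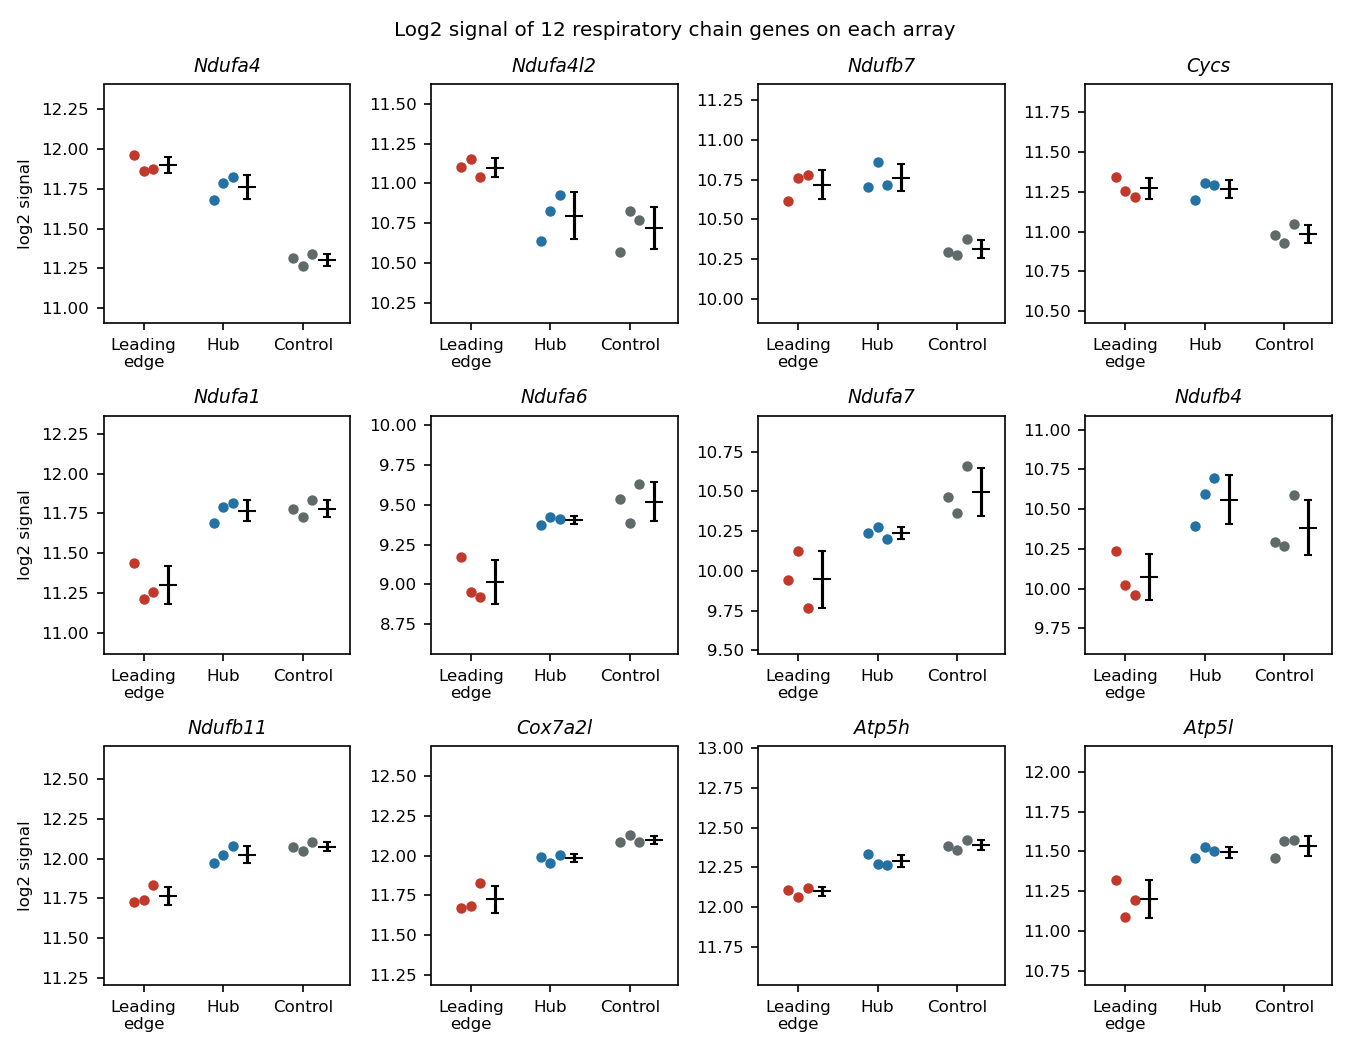
Log2 signal (y axis) of 12 respiratory chain genes on each of 9 arrays, grouped as leading edge, hub and control (x axis). Coloured points are arrays and the black mark is the mean with its SD (n = 3): Ndufa4, Ndufb7 and Cycs have their 3 LE and 3 hub points above control, and Ndufa1, Ndufa6, Cox7a2l and Ndufb11 have their LE points below the rest.

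Against control cells the LE moved in both directions. Of the 89 genes, 11 were lower and 4 were higher at the LE (12.4% and 4.49%), beside 10.8% and 11.9% of all genes. In either direction this is 16.9%, beside 22.8%. The share called lower was thus near that of all genes, and the share called higher was below it. The median difference was -0.01, against 0.02 for all genes, and the range ran from -0.55 to 0.69. The upper end was Ndufaf1, an assembly factor named here after its values were seen, which lay below the background percentile and was not called (adjusted p = 0.087, limma). It was at 6.90, 6.85 and 6.99 at the LE and 6.47, 6.71 and 5.49 in control cells, so the difference leans on 1 low control array. Differences below 0 were seen in 47 genes (52.8%, beside 45.3% of all genes) and above 0 in 42 (47.2%, beside 54.7%). All LE arrays lay above all control arrays in 18 genes (20.2%, beside 20.0%) and below them in 19 (21.3%, beside 16.2%). For 75 of the 89 genes the 95% interval of the difference, not adjusted for the number of genes, lay within 0.5 of 0 on the log2 scale.

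Ndufa4, first described with complex I and now placed in complex IV, had the lowest p among them. Its signal was 11.96, 11.87 and 11.88 at the LE, 11.68, 11.79 and 11.82 in the hub and 11.31, 11.27 and 11.34 in control cells. Control arrays lay below all wound arrays, and the LE arrays lay just above those of the hub. The LE was 1.51-fold above control (0.59 ± 0.07 on the log2 scale, adjusted p = 0.00020, limma) and the hub 1.37-fold (0.46 ± 0.07, adjusted p = 0.0041). LE minus hub was 0.14 and was not called (adjusted p = 0.28).

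Ndufa4l2, a relative of Ndufa4 known as a target of the hypoxia factor HIF-1, had another pattern. It was at 11.10, 11.15 and 11.04 at the LE, 10.64, 10.83 and 10.93 in the hub and 10.57, 10.82 and 10.77 in control cells. The LE arrays lay above all the others, and hub and control arrays overlapped. LE minus control was 0.38 ± 0.10 (adjusted p = 0.019, limma), a call lost without LE array 1, LE array 2 or control array 1 (adjusted p up to 0.068). LE minus hub was 0.30 with an adjusted p of 0.085, and hub minus control was 0.08.

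Ndufb7, an accessory subunit of complex I, was at 10.61, 10.76 and 10.78 at the LE, 10.71, 10.86 and 10.72 in the hub and 10.29, 10.27 and 10.38 in control cells. Both wound regions lay above control and overlapped each other. The difference from control was 0.40 ± 0.08 at the LE (adjusted p = 0.0042, limma) and 0.45 ± 0.08 in the hub (adjusted p = 0.0081). Cycs, cytochrome c, the mobile carrier between complexes III and IV that also takes part in apoptosis, was at 11.34, 11.26 and 11.22 at the LE, 11.20, 11.31 and 11.29 in the hub and 10.98, 10.93 and 11.05 in control cells. Control arrays again lay below all wound arrays. Its difference from control was 0.29 ± 0.07 at the LE (adjusted p = 0.014, limma) and 0.28 ± 0.07 in the hub (adjusted p = 0.039).

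The lowest difference from control was that of Ndufa7, an accessory subunit of the hydrophilic arm. It was at 9.94, 10.13 and 9.77 at the LE, 10.24, 10.28 and 10.20 in the hub and 10.46, 10.36 and 10.66 in control cells. The 3 groups did not overlap, with the hub between the other two. LE minus control was -0.55 ± 0.11, or 0.68 of the control level (adjusted p = 0.0046, limma), and hub minus control was -0.26 and not called (adjusted p = 0.22). Ndufa6 and Ndufa1, described above, were -0.51 and -0.48 from control at the LE (adjusted p = 0.0029 and 0.0018).

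Cox7a2l was at 11.67, 11.68 and 11.82 at the LE, 11.98 ± 0.02 (SD, n = 3) in the hub and 12.09, 12.13 and 12.08 in control cells. The 3 groups did not overlap, with LE lowest and control highest. LE minus control was -0.37 ± 0.07 (adjusted p = 0.0029, limma), while hub minus control was -0.12 and not called. In complex V, Atp5h, the d subunit of the stalk that holds the ATP synthase head, was at 12.11, 12.07 and 12.12 at the LE, 12.34, 12.27 and 12.27 in the hub and 12.38, 12.36 and 12.42 in control cells. The LE arrays lay below all the others, at -0.29 from control (adjusted p = 0.0071, limma). Atp5l differed by -0.33.

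The other lower calls against control were Ndufaf5 (-0.36), Ndufb11 (-0.31), Ndufb5 (-0.28), Ndufa3 (-0.26) and Cox4i1, the common form of a regulatory subunit of complex IV (-0.22). Of the 15 calls, 10 held when each array was left out in turn: Ndufa1, Ndufa6, Ndufa7, Ndufb11, Cox7a2l, Atp5h and Atp5l among the lower, and Ndufa4, Ndufb7 and Cycs among the higher. Without LE array 1 there were 13 calls, 3 of them higher. Without LE array 3 there were 11 calls, 4 higher and 7 lower. The fit without hub array 2 gave 13 and that without hub array 3 gave 14.

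Core and other central nuclear subunits gave no call in this comparison, apart from Cox4i1 and Cycs above. The catalytic core of complex IV is encoded in mitochondrial DNA and was not analysed here. The 6 core subunits of complex I measured, among them Ndufs1, Ndufv1 and Ndufv2, which carry the flavin or iron-sulphur clusters, ranged from -0.06 to 0.22. Sdha, the flavoprotein of complex II, was at 0.14, and Sdhb, Sdhc and Sdhd were at -0.14, -0.01 and 0.05. The complex III subunits Uqcrc1, Uqcrc2 and the Rieske protein Uqcrfs1 were at -0.03, 0.04 and 0.12. Cox5a and Cox5b, structural subunits of complex IV, were at -0.01 and -0.02. The alpha, beta and gamma subunits of the ATP synthase head, Atp5a1, Atp5b and Atp5c1, were at 0.12, 0.02 and -0.11.

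Of 8 forms of complex IV subunits known from particular tissues or from low oxygen, 4 lay below the background percentile, 3 just above it and Ndufa4l2 well above it. Cox7a1 and Cox8b, forms of heart and skeletal muscle, averaged 6.06 and 7.15 at the LE and 6.07 and 7.23 in control cells. Cox6b2 and Cox7b2 also lay below the background percentile in all groups. Cox6a2, a muscle form, and Cox4i2, a lung form induced by low oxygen, were at 7.83 and 7.39 at the LE and 7.65 and 7.28 in control cells. Cox8c, a testis form, was at 7.61 at the LE and 7.65 in control cells. Only Ndufa4l2, of these 8, was called in any comparison.

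Between hub and control few genes were called. Of the 89 genes, 4 were higher in the hub and 0 were lower (4.49% and 0%), beside 4.16% and 3.12% of all genes, so the share called higher was near that of all genes. In either direction the share was 4.49%, below the 7.28% of all genes. At an unadjusted p under 0.05 there were 19 higher and 1 lower, which is 21.3% and 1.12% of the set beside 11.3% and 8.20% of all genes. The median difference was 0.09, against 0.03 for all genes, with a range from -0.26 to 0.46. The difference was above 0 in 69 genes (77.5%), beside 58.1% of all genes, and the 3 hub arrays lay above the 3 control arrays in 33 genes (37.1%), beside 14.4%. The called genes were Ndufa4, Ndufb7, Cycs and Cyc1, the haem-bearing subunit of complex III. Cyc1 was at 11.19, 11.30 and 11.25 in the hub and 11.03, 10.93 and 10.97 in control cells, a difference of 0.27 ± 0.06 (adjusted p = 0.037, limma). The calls of Ndufa4 and Ndufb7 held when each array was left out, whereas those of Cycs and Cyc1 were lost in 8 and 7 of 9 such fits. Without hub array 2, hub array 3 or LE array 3, 2 calls were left, and without LE array 1 there were 4. LE and hub were set against the same control arrays, so these values are not independent of those above.

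**Figure D3:**
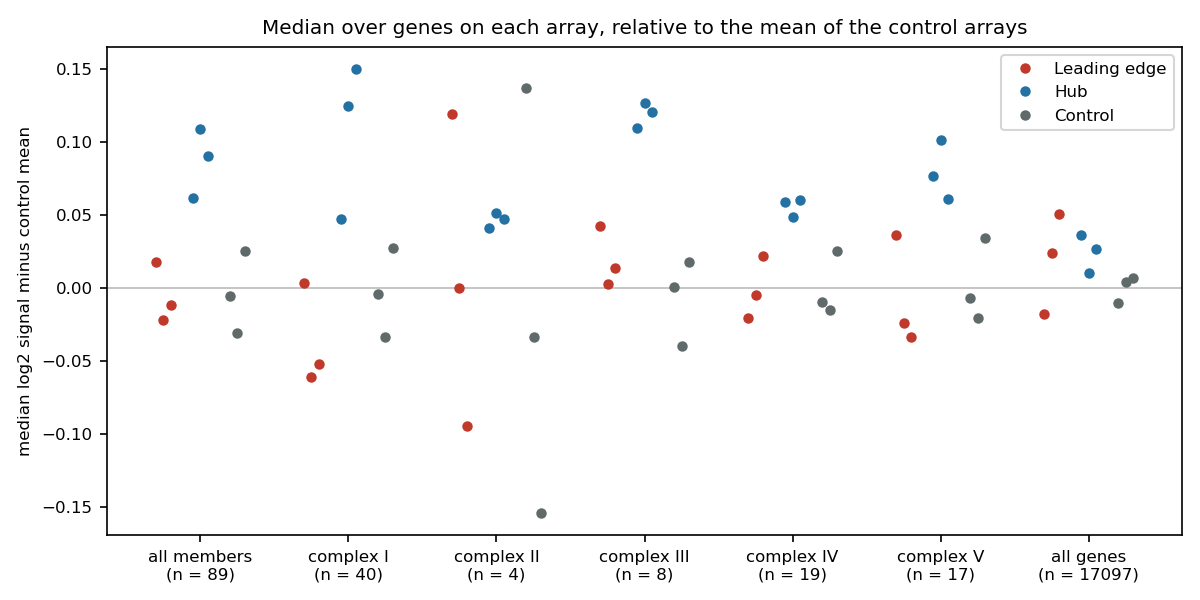
Median log2 signal over genes on each array, minus the mean of the control arrays (y axis), for all respiratory chain genes, for 5 complexes and for all genes (x axis, with the number of genes). Each point is 1 array: for the 89 genes the hub arrays lie at 0.06, 0.11 and 0.09, above the LE arrays at 0.02, -0.02 and -0.01 and the control arrays at -0.01, -0.03 and 0.02.

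The median over the 89 genes, relative to the control mean, was 0.02, -0.02 and -0.01 on the LE arrays, 0.06, 0.11 and 0.09 on the hub arrays and -0.01, -0.03 and 0.02 on the control arrays. The hub arrays lay above both other groups, which overlapped. The same order held for complex I, complex III, complex IV and complex V, but not for complex II, where the groups overlapped. For all 17097 genes the 9 medians lay between -0.02 and 0.05. In these cells, a lower share of one cell type and less RNA per cell cannot be told apart.

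Other probe sets of the same genes were compared where a gene had more than 1, as 42 of the 89 did. All 3 probe sets of Cox7a2l were lower at the LE than in control cells, at -0.37, -0.48 and -0.47, and those of Ndufb11 were at -0.31, -0.31 and -0.37. The 5 probe sets of Ndufa7 ranged from -0.55 to -0.13, and 3 of them were called. A second probe set of Atp5h was at -0.35. In some genes a further probe set was called where the one used was not. A second, dimmer probe set of Atp5c1 was at -0.77 (adjusted p = 0.0025, limma over all probe sets), while the brighter one was at -0.11. In the same comparison this held for Ndufa12 (-0.31 beside -0.05), Ndufb2 (-0.28 beside -0.18), Cox8a (-0.24 beside -0.20) and Sdha (0.27 beside 0.14). Between LE and hub it held for Atp5c1 (-0.64 beside -0.14) and Atp5h (-0.30 beside -0.19), and between hub and control for Ndufaf4 (0.68 beside 0.35). No gene of the set had probe sets called in opposite directions.

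Promoters were read to show what lies upstream of the genes that changed most steadily. RefSeq promoters (GRCm38.p6) matched 71 of the 89 genes with 76 windows, and the 250 bases before the start were searched on both strands. The NRF1 letters (GCGCA, any base, then GCGC), named for a factor known to drive nuclear genes of respiration, were in 18.4% of the windows, against 3.74% of all 32851 windows. The ETS letters CCGGAAG, which GABPA reads, were in 15.8% against 6.91%. The HIF core ACGTG was in 22.4% against 16.6%, the YY1 letters AAGATGGCG in 1.32% against 0.606%, and the ERR letters TCAAGGTCA in 1.32% against 0.387%. A match is a description of letters and no evidence of binding. The 100 bases before the start are printed below for the 3 genes that kept a higher call at the LE against control and for 4 of the 7 that kept a lower one. The lower genes not printed, Ndufb11, Cox7a2l and Atp5l, have none of these motifs within those 100 bases, nor has the further window of Ndufa7. Capitals mark these motifs on either strand.
Ndufa4 (higher; chr6:11907451-11907550, minus strand): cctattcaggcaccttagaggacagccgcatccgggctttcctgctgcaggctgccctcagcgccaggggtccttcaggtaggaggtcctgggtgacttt
Ndufb7 (higher; chr8:83566658-83566757, plus strand): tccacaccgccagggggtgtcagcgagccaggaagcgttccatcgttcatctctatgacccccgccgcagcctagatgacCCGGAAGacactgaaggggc
Cycs (higher; chr6:50566570-50566669, minus strand): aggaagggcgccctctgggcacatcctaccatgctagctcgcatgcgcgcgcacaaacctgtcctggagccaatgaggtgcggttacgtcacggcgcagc
Ndufa7 (lower; chr17:33824472-33824571, plus strand): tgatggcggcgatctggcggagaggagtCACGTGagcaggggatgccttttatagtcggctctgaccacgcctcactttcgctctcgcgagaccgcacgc
Ndufa6 (lower; chr15:82354292-82354391, minus strand): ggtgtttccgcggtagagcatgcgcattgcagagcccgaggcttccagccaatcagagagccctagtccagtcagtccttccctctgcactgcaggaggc
Ndufa1 (lower; chrX:37191239-37191338, minus strand): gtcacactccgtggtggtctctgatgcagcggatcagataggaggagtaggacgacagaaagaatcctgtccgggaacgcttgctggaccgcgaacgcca
Atp5h (lower; chr11:115419920-115420019, minus strand): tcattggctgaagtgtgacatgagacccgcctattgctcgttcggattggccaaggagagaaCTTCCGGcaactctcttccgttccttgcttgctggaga

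Ndufb7, which was higher in both wound regions, and Atp5h, which was lower at the LE, both carry the ETS letters in these windows, on opposite strands. Ndufa7 carries CACGTG, in which ACGTG reads on both strands. Over the whole 250 bases, the ACGTG core was in 1 of 3 windows of the genes held higher and in 4 of 8 windows of those held lower, 2 of which are overlapping windows of Ndufa7. These few windows stand beside 16.6% of all windows, and no link between letters and differences was tested. Where no letters are capital, the motifs searched are only absent from the window shown.

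Genes outside the chain but tied to the same organelle were counted from lists, to be read beside the shares over all genes given above. Of 73 mitochondrial ribosomal proteins, 8 were higher (11%, beside 4.16% of all genes) and 0 lower in the hub than in control cells, with a median of 0.18, and Mrpl34 and Mrpl35 had the lowest p, with differences of 0.69 and 0.52. Between LE and hub, 0 were higher and 2 lower (median -0.17), and between LE and control 7 were higher and 6 lower (median 0.06), which is 9.59% and 8.22% beside 11.9% and 10.8% of all genes. Among 15 genes of the TCA cycle and pyruvate dehydrogenase, 4 were higher (26.7%) and 3 lower (20%) at the LE than in control cells. Dlat and Dlst, core enzymes of the pyruvate and 2-oxoglutarate dehydrogenases, were at 0.53 each. Between LE and hub the TCA list had 2 lower (Idh3g at -0.34, Idh3b at -0.26), and between hub and control 2 higher (median 0.12).

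The list of genes tied to mitochondria that are known to respond to low oxygen, which includes the cytosolic enzyme Ldha, had the larger differences. Of its 8 genes, 2 of which (Ndufa4l2 and Cox4i2) are also in the chain, 5 were higher (62.5%, beside 11.9% of all genes) and 0 lower at the LE than in control cells, with a median of 0.44. Bnip3, a receptor for mitochondrial autophagy, averaged 11.53 at the LE, 10.37 in the hub and 9.46 in control cells. LE minus control was 2.08 for Bnip3 and 0.59 for its relative Bnip3l. Ldha, which turns pyruvate into lactate, was at 0.49. Against the hub, Bnip3 and Bnip3l were higher at the LE, by 1.16 and 0.33, and Ldha was at 0.19 and not called (adjusted p = 0.089, limma). In the hub, 2 of the 8 were higher than in control cells, Bnip3 by 0.91 and Ldha by 0.30.

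Assembly factors had calls in both directions, and import genes only higher ones. Of 18 assembly factors of complex IV, 3 were higher and 3 lower (16.7% each) at the LE than in control cells, and Cmc1, a twin-cysteine protein that steadies the COX1 subunit, was lowest at -0.97. Cmc1 and Coa6 were also lower at the LE than in the hub (-0.73 and -0.47). Of 16 import proteins and chaperones, 4 were higher (25%) and 0 lower at the LE than in control cells, among them Timm17a (0.51), and 2 were higher in the hub than in control cells (12.5%, beside 4.16% of all genes). Of 14 regulators of mitochondrial biogenesis, Esrra was higher (0.38) and Tfb2m and Polg2 were lower (-0.42 and -0.51) at the LE than in control cells. Tfb2m, a factor that mitochondrial transcription needs, and Twnk, the mitochondrial helicase, were lower at the LE than in the hub (-0.52 and -0.39). Of 10 coenzyme Q genes, Coq10b was higher at the LE than in the hub (0.61) and lower in the hub than in control cells (-0.48), and Coq10a was lower at the LE than in control cells (-0.58). Complex I assembly factors with other names had 1 of 9 higher and 1 lower at the LE than in control cells, assembly factors of complexes II, III and V had 1 of 12 in each direction, and carriers and channels had 3 of 11 higher and 1 lower.

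**Figure D4:**
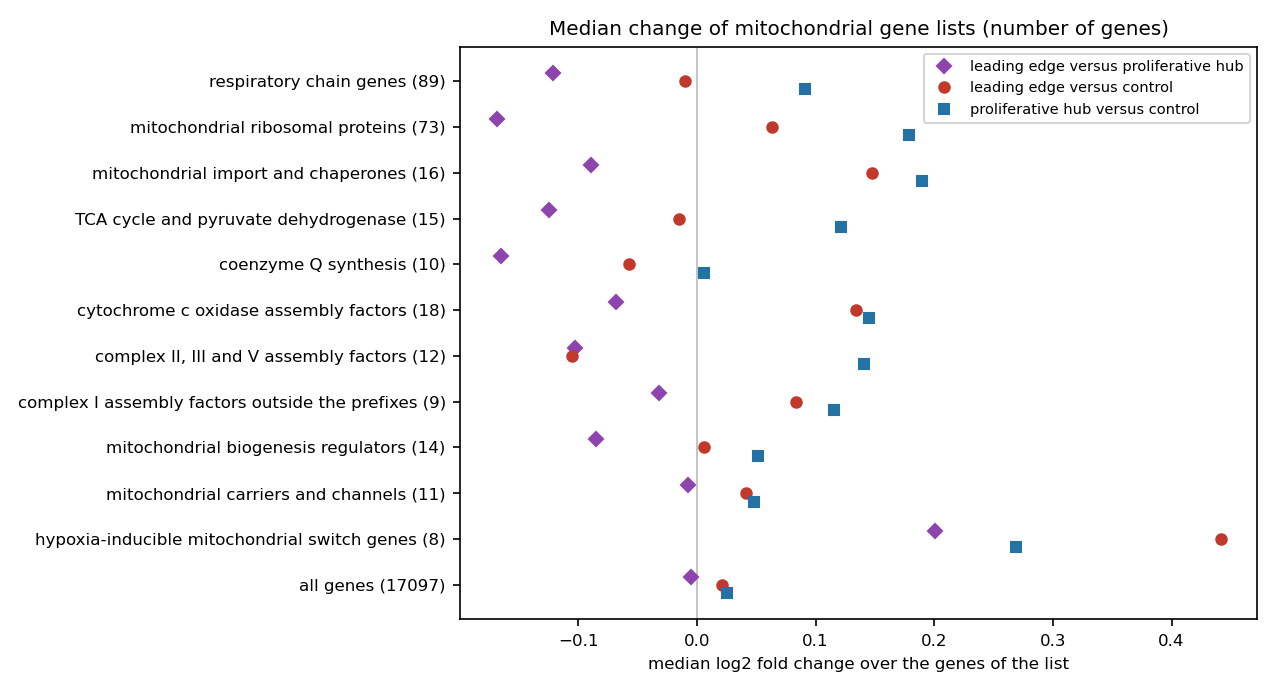
Median log2 fold change (x axis) of respiratory chain genes, 10 lists of genes tied to mitochondria and all genes (y axis, with the number of genes) in 3 comparisons, 1 symbol for each comparison. The hypoxia-inducible list has the highest medians against control, 0.44 at the LE and 0.27 in the hub, while respiratory chain genes lie at -0.01 and 0.09.

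Summed signal of the myeloid, fibroblast and Langerhans cell lists did not overlap between the groups, while that of the other lists overlapped between some or all groups. Summed linear signal of 17 myeloid markers was 2759 to 2996 at the LE, 2002 to 2025 in the hub and 1148 to 1296 in control cells, and only S100a8, which keratinocytes of wounds also make, was above the background percentile on average. Of the 17, 5 were higher at the LE than in control cells (29.4%, beside 11.9% of all genes), among them S100a8 (3.02), Cd14 (0.89) and Cxcr2 (0.76). Against the hub, 2 were higher at the LE, Cd14 and Cxcr2 (11.8%, beside 5.39% of all genes). Only S100a8 was higher in the hub than in control cells (5.88%, near the 4.16% of all genes). Summed signal of 10 fibroblast markers was 981 to 1265 at the LE, 1726 to 1755 in the hub and 1866 to 2049 in control cells. Only 2 of the 10 lay above the background percentile on average. The median difference over the list was 0.03 for LE minus control, so the sums do not show a fall of the list as a whole. Thy1 and Dcn were called lower at the LE than in control cells (-1.28 and -1.65), which is 20% of the list beside 10.8% of all genes. Thy1 was also lower at the LE than in the hub (-1.23), and Dcn was lower in the hub than in control cells (-1.09). Endothelial markers (12) ran from 1128 to 2655 at the LE, 1129 to 1587 in the hub and 924 to 1065 in control cells, and 0 of them were called. Langerhans cell markers (7) ran from 1651 to 2439, 1097 to 1274 and 1399 to 1517 in the same groups. H2-Ab1 was higher at the LE than in control cells (2.34) and than in the hub (1.93), and Epcam was higher at the LE than in the hub (1.04) and lower in the hub than in control cells (-0.80). These were the only calls: 14.3% of the list against control at the LE, beside 11.9% of all genes, and 28.6% against the hub, beside 5.39%. The lower call in the hub was 14.3%, beside 3.12%. List medians were 0.09 for LE minus control and 0.06 for LE minus hub, and 4 of the 7 lay above the background percentile. Skeletal muscle markers (14) differed little in summed signal, with 1358 to 1548 at the LE and 1300 to 1444 in control cells, and 4 of them lay above the background percentile. Of these 14, only Tnni2 was called, higher at the LE than in control cells (0.38, 7.14% of the list beside 11.9% of all genes). Fat markers (7) and T cell markers (6) all lay below that percentile, and 1 of 7 melanocyte markers lay above it. The fat marker Fabp4 was called higher at the LE than in control cells (1.21, 14.3% of its list beside 11.9% of all genes). The melanocyte marker Mitf was called lower in the same comparison (-0.50, 14.3% of its list beside 10.8%). The part of these cells in the differences of respiratory chain genes was not tested.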

How the data were processed

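Gene expression in basal cells of mouse tail skin was measured on 9 Affymetrix PM strip arrays of the mouse genome. Per the labels, 3 came from leading edge, 3 from hub and 3 from control. Deposited values are log2 signals that the authors obtained by RMA (version not given in the sources used here). RMA gives all arrays 1 distribution, so a change in total RNA cannot be seen, and it compresses differences between dim genes. Array medians were 6.47 to 6.53, and the number of arrays limits the precision. Of 45141 probe sets, 28898 had 1 gene symbol in the platform annotation. The brightest probe set on average stood for each gene, leaving 17097 genes, and dim genes were kept.

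A single fit of group means over all 9 arrays was made with limma 3.58.1 in R 4.3.3 (lmFit, eBayes). Tests were two-sided, p-values were adjusted over all genes by Benjamini-Hochberg, and calls were made at 0.05. The test was checked on simulated data. The methods of the study state no test but a fold rule, which was tried as an alternative. Other alternatives were replicate number as a block, a trend of variance with mean, weights for arrays, 2 other normalizations, a filter on dim genes, other choices of probe sets, fits of 6 arrays, a 2-fold minimum, a list without assembly factors, and each array left out.

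Members and lists were chosen with earlier results of these data known. Genes were named by rule: called members, catalytic subunits and tissue forms, up to 3 called genes of lowest p in each other list, and check genes. Subunits encoded in mitochondrial DNA were not analysed here.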

Additional observations from a re-analysis of the deposited data

Results flagged for a closer look

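The 8 genes called between leading edge and hub were set apart because that contrast is also the difference of their effects against the shared control. Leading edge minus hub was -0.47 for Ndufa1, -0.49 for Ndufb4, -0.42 for Ndufaf5, -0.39 for Ndufa6, -0.29 for Atp5l, and -0.26 for Ndufb10, Ndufb11 and Cox7a2l (log2, limma, adjusted p from 0.0048 to 0.046). The leading edge was below the hub in all 3 arrays of each.

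Probe sets that did not stand for their gene gave 4 further signals above control. A second probe set of Cycs was 0.32 higher and one of Ndufb7 was 0.36 higher at the leading edge than in control cells, as were the probe sets used for these genes. A second probe set of Sdha was 0.27 higher at the leading edge than in control cells (adjusted p = 0.043, limma over all probe sets), while the one used was at 0.14 and not called. A second probe set of Ndufaf4, an assembly factor of complex I, was 0.68 higher in the hub than in control cells (adjusted p = 0.0092, limma over all probe sets), while the one used was at 0.35 and not called.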

How the results depend on the processing

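With a mean-variance trend, 19 genes were called between leading edge and hub (18 lower) and 10 between hub and control, against 8 and 4. Leading edge versus hub gave 18 calls with array weights, 14 with repeated quantile normalization, 13 with the mean of all probe sets and 5 with arrays centred on their median. With the replicate block it gave 2 calls, and hub versus control gave 2. Correlations of deviations from the group means ran from -0.178 to 0.082 for same-numbered arrays and from -0.146 to 0.118 for the others. With 3 arrays a group, these values cannot settle whether same-numbered arrays were paired. Hub versus control gave 2 calls with only the 6 arrays compared. A 2-fold minimum, and the fold rule in each same-numbered pair, left 0 calls in every comparison. Leaving out each array gave 1 to 8 calls for leading edge versus hub, 10 to 15 for leading edge versus control and 2 to 4 for hub versus control. The share of all genes called was not set beside the counts of these alternative fits. A shift in a count therefore need not be particular to the respiratory chain genes. Medians kept their sign, except that of leading edge versus control, which was 0.01 with arrays centred on their median. With each array left out, medians were -0.14 to -0.11 for leading edge versus hub, -0.02 to -0.0027 for leading edge versus control and 0.09 to 0.11 for hub versus control. No named gene reversed a called direction. With 3 arrays a group, small differences of single genes could not be settled, and dim genes are compressed.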
